A study of Rattus norvegicus with 30 samples.

Results

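The genes described here are 10 immediate early genes: the AP-1 genes Fos, Fosb, Fosl1, Jun, Junb and Jund, the related gene Atf3, the zinc finger genes Egr1 and Klf6, and the stress response gene Ier3. They were chosen by name, from probe sets that the array's annotation gives exactly 1 gene symbol, and all 10 were measured among 18166 genes tested. Jun had 2 probe sets, which were averaged, and each of the others had 1. The study compared the livers of 30 wild-type Wistar rats, 1 Affymetrix Rat Gene 2.0 ST array per rat, after hepatectomies of different size. Rats were assigned at random to 5 groups of 6. PH30, PH70 and PH90 had 30%, 70% or 90% of the liver resected, the sham group had a sham operation, and the unoperated group had no operation. Liver was taken 24 hours after operation and RNA came from a small piece of whole tissue, so hepatocytes and all other liver cells were measured together. The labels give neither the age nor the sex of the rats.

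AP-1 is a pair of basic leucine zipper (bZIP) proteins, usually 1 of the Jun family and 1 of the Fos family, that binds DNA at AP-1 sites. Immediate early genes are transcribed within minutes of a stimulus without new protein synthesis, largely through MAP kinases acting on factors such as SRF and the ternary complex factors. In the regenerating liver they are best known for a brief rise in the first hours after resection, as hepatocytes leave quiescence, and Jun is needed for normal regeneration in mice. Values taken 24 hours after surgery lie after that early period.

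The RefSeq promoter table (assembly GRCr8, 250 bases before to 50 bases after each start that it lists) held 6 of the 10 genes: Fosb, Fosl1, Junb, Jund, Egr1 and Klf6. Windows of 4 of them are shown because they cover the patterns described below. Against sham, Egr1 rose after every resection, though not firmly in PH30, and Jund and Klf6 rose in PH90. Against the unoperated rats Egr1 passed in PH90 only. Fosb did not pass the test in any comparison. Capitals mark letters of the motifs searched on both strands, and each sequence is given on the gene's own strand. The Egr1 window is chr18:26736828-26737127 (plus strand), that of Jund is chr16:18769722-18770021 (minus strand), that of Klf6 is chr17:69458429-69458728 (minus strand) and that of Fosb is chr1:88089135-88089434 (minus strand).
Egr1: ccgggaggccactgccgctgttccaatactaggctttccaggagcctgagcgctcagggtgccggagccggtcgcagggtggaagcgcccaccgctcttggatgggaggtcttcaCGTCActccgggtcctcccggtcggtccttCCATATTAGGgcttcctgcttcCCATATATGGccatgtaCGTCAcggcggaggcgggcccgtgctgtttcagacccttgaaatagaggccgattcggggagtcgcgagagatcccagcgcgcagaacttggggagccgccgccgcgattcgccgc
Jund: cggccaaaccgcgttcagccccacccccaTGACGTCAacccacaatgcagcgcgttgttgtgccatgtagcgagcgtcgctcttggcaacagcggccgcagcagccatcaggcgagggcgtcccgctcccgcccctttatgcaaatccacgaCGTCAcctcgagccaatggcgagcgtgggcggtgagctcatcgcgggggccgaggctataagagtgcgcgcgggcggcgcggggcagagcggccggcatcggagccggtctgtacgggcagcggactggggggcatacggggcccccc
Klf6: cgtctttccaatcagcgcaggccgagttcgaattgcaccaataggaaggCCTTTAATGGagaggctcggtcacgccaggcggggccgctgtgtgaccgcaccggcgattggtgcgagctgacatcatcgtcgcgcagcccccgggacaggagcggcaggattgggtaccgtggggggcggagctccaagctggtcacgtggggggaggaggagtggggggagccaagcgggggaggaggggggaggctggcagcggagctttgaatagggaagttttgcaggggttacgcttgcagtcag
Fosb: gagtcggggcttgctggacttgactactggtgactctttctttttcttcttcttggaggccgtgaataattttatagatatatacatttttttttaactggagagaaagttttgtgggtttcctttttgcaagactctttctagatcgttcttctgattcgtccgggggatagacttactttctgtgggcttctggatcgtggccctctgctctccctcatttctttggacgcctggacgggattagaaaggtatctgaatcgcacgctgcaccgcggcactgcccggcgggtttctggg

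With the gene start counted as position 0, the Egr1 window held CArG boxes, the DNA element bound by SRF, beginning at -105 and -83. It also held TGACG, the core of the cyclic AMP response element, at -135 and -66. The Jund window held the full element TGACGTCA at -221, which itself contains overlapping cores on opposite strands at -221 and -218, and a further core at -98. The Klf6 window held 1 CArG box, at -201. None of the motifs searched was found in the Fosb window. However, Fosb is annotated from 88082324 to 88089506 on the minus strand, so its window lies inside the gene. The letters before the annotated start of Fosb were not searched. Junb had 1 core at -155 and Fosl1 had cores at -148 and -84, and the AP-1 site (TGANTCA with C or G as N) was in none of the 6 windows. Of all 27456 promoters in the table, 1.64% held a CArG box, 1.91% the full cyclic AMP response element, 22% its core and 4.53% an AP-1 site. These matches describe letters in a window and not binding.

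All values are deposited log2 values in which each probe set's median over the 30 arrays is 0. The level of a gene is therefore not known: a value says how far a rat lies above or below that gene's own median, and values of different genes are not levels to be ranked. For the same reason the presence of hepatocyte transcripts could not be checked from a level. Each array was compared with the others of its group by the mean correlation over all genes. Rat 95 (PH30) had a mean correlation of -0.11 with its group, where the other PH30 rats had 0.18 to 0.24, and rat 139 (PH70) had -0.11 where the other PH70 rats had 0.49 to 0.55. Calls against sham that these 2 arrays change, of the 10 genes and of the lists of related genes, are given with and without them. For the cell type markers such changes are given in PH90 only, and others in PH30 and PH70 are not listed. Neither rat is in PH90 or sham, so calls in PH90 against sham change only through the spread estimated from all arrays. A higher value in whole tissue can come from more cells of a type or from more RNA per cell, which cannot be told apart here.

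Over the 5 groups, 9 of the 10 genes differed (limma's moderated F test, Benjamini-Hochberg adjustment over all genes, adjusted p below 0.05), where 42.7% of all genes did. The adjusted p ranged from 7.3e-07 for Jun to 0.0088 for Fosl1, and Fosb was the exception at 0.6. Against sham, 9 of the 10 genes rose in PH90, where 34.6% of all genes changed and 19.9% rose. The median difference of the 10 genes in PH90 was 0.83 on the log2 scale, and that of all genes was 0.00. In PH70 2 of the 10 rose (Jun and Egr1), where 18.6% of all genes changed and 10.5% rose, and the median difference was 0.20 against -0.01 for all genes. In PH30 1 rose (Egr1), where 5.53% of all genes changed and 2.2% rose, and the median difference was 0.09 against 0.01. PH90 had the highest group mean in 9 of the 10 genes, a count for which the share over all genes was not computed.

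**Figure D1:**
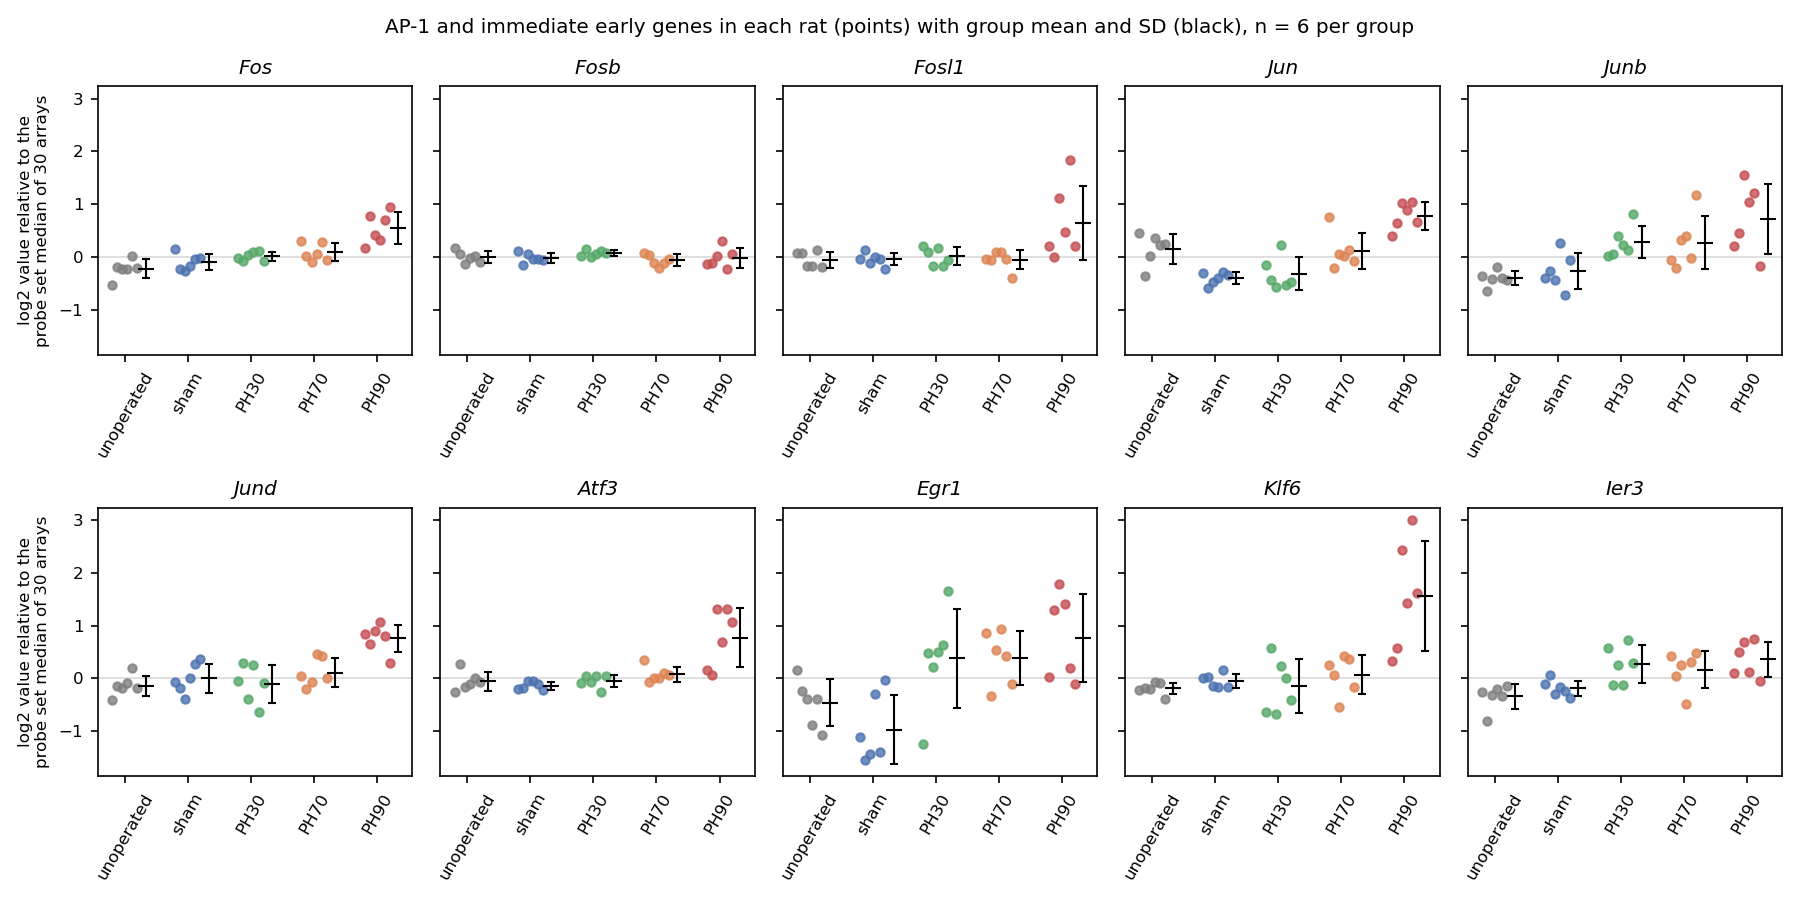
Log2 value relative to the probe set's median over 30 arrays (vertical axis) of the 10 genes in each rat (points) by group, with the group mean and SD in black (n = 6 per group). In PH90 the 6 rats lie above the highest sham rat for Fos, Jun, Atf3 and Klf6, while the Fosb values of all groups lie between -0.23 and 0.31.

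**Figure D2:**
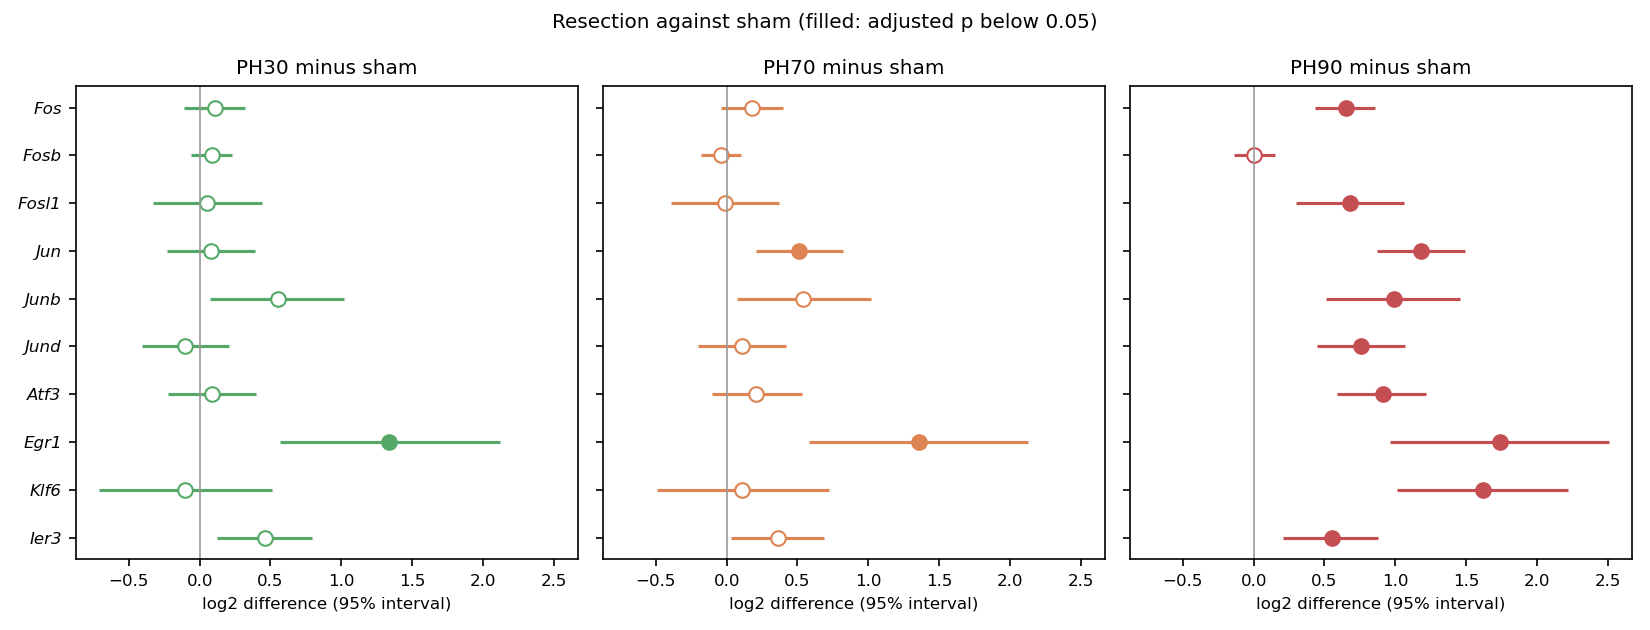
Log2 difference from sham (horizontal axis) with its 95% interval for the 10 genes after each resection (n = 6 per group), with filled points where limma's adjusted p was below 0.05. Egr1 is filled in all 3 panels, Jun in the PH70 and PH90 panels, and 9 of the 10 genes are filled in the PH90 panel.

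Fos, the partner of Jun proteins in classical AP-1, had values from 0.17 to 0.94 in PH90 with a median of 0.55. The sham rats lay between -0.26 and 0.15 (median -0.10), the PH30 rats between -0.08 and 0.12 (median 0.00) and the PH70 rats between -0.10 and 0.31 (median 0.04). Every PH90 rat was above every sham and PH30 rat, and 5 of 6 were above every PH70 rat. Against sham, Fos rose 1.57-fold in PH90 (log2 difference 0.65, SE 0.11, limma adjusted p = 1e-05). The differences in PH30 (0.11, adjusted p = 0.64) and PH70 (0.18, adjusted p = 0.28) did not pass limma's test. The unoperated rats had the lowest group mean, -0.22, with values from -0.53 to 0.02.

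Fosb, another Fos family protein with a transactivating C terminus, did not pass the test in any comparison. Its sham values ran from -0.16 to 0.11 (median -0.03) and its PH90 values from -0.23 to 0.31 (median -0.05). The groups overlapped throughout, with group means that spanned 0.13 on the log2 scale. The PH90 difference from sham was 0.00 with a 95% interval from -0.14 to 0.15 (limma adjusted p = 0.99).

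Fosl1 encodes Fra-1, a Fos family member without the transactivation domain of Fos, and is itself a textbook AP-1 target. In PH90 its values ran from 0.00 to 1.83 with a median of 0.34, and in sham from -0.23 to 0.14 with a median of -0.03. PH30 (-0.18 to 0.20) and PH70 (-0.40 to 0.10) covered much the same range as sham. The PH90 rats were uneven: rat 106 was at 1.83 and rat 61 at 1.11, while the lowest lay within the sham range. Fosl1 rose 1.60-fold against sham (0.68, SE 0.19, limma adjusted p = 0.0045). Without rat 106 the difference was 0.44 (adjusted p = 0.009), and in a fit of the sham and PH90 arrays alone the call was lost (0.68, adjusted p = 0.053).

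Jun, the central DNA-binding partner of AP-1, had PH90 values from 0.39 to 1.05 (median 0.78) and sham values from -0.59 to -0.29 (median -0.38). PH70 rats lay between, from -0.21 to 0.76 (median 0.03), and PH30 rats ran from -0.56 to 0.23 (median -0.46). All 6 PH70 rats and all 6 PH90 rats were above the highest sham rat, and the PH90 rats were also all above the highest PH30 rat. Among all genes, 12.1% had every PH90 rat above every sham rat, and 4.36% had every PH70 rat above every sham rat. Jun rose 2.27-fold in PH90 (1.18, SE 0.15, limma adjusted p = 1.8e-07) and 1.43-fold in PH70 (0.51, SE 0.15, limma adjusted p = 0.014). The PH70 call was lost without rat 37, the highest PH70 rat (0.38, adjusted p = 0.056). In PH30 the difference from sham was 0.08 (adjusted p = 0.83).

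The 2 Jun probe sets agreed in direction but not in size. In PH90 against sham 1 gave 1.82 (SE 0.24) and the other 0.54 (SE 0.10), and both passed limma's test. In PH70 against sham they gave 0.88 (limma adjusted p = 0.0085) and 0.15 (adjusted p = 0.35), so 1 of them passed.

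Junb, a Jun family member that is often a weaker activator than Jun, had sham values from -0.72 to 0.27 (median -0.33). Its values ran from 0.02 to 0.82 in PH30 (median 0.18), from -0.20 to 1.18 in PH70 (median 0.15) and from -0.18 to 1.55 in PH90 (median 0.75). Every resected group overlapped with sham, and the highest PH70 rat was rat 139, which stood apart over all genes. Junb rose 1.98-fold in PH90 (0.99, SE 0.23, limma adjusted p = 0.001). In PH30 the difference was 0.55 (adjusted p = 0.17) and in PH70 0.54 (adjusted p = 0.11), with all 6 rats of each group above the sham mean. Without rats 95 and 139 these were 0.59 (adjusted p = 0.084) and 0.36 (adjusted p = 0.29). With quantile normalization the PH30 difference passed (0.77, adjusted p = 0.046).

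Jund, the Jun family member usually transcribed in resting cells, had PH90 values from 0.30 to 1.07 (median 0.82) and sham values from -0.39 to 0.37 (median -0.03). PH30 ran from -0.63 to 0.29 and PH70 from -0.20 to 0.46, both overlapping with sham. The rise in PH90 was 1.69-fold against sham (0.76, SE 0.15, limma adjusted p = 0.00017). The lowest PH90 rat, rat 111 at 0.30, was the only one that lay within the sham range. PH30 (-0.10, adjusted p = 0.78) and PH70 (0.11, adjusted p = 0.72) did not pass limma's test.

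Atf3, a stress-induced bZIP repressor that pairs with Jun proteins, had tight values outside PH90: -0.22 to -0.05 in sham, -0.26 to 0.05 in PH30 and -0.06 to 0.35 in PH70. In PH90 it ran from 0.07 to 1.32 with a median of 0.88. Every PH90 rat was above every sham and PH30 rat, although rats 39 and 43 lay well below the other PH90 rats. Atf3 rose 1.87-fold against sham (0.91, SE 0.15, limma adjusted p = 1.6e-05). In PH70 5 of 6 rats were above the highest sham rat, and the difference of 0.21 did not pass limma's test on all groups (adjusted p = 0.4). In a fit of the sham and PH70 arrays alone it passed (0.21, adjusted p = 0.04).

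Egr1, a zinc finger factor that binds GC-rich promoters and is induced through SRF, had the lowest median of its 5 groups in sham. Sham values ran from -1.55 to -0.02 (median -1.25), with rats 143 and 114 above the other 4. PH30 ran from -1.25 to 1.66 (median 0.50), PH70 from -0.34 to 0.94 (median 0.49) and PH90 from -0.11 to 1.80 (median 0.74). All 3 resected groups overlapped with sham, but 5 of 6 PH30 rats, 4 of 6 PH70 rats and 5 of 6 PH90 rats were above the highest sham rat. Rat 65 was the low PH30 rat, at -1.25.

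Egr1 was the only one of the 10 genes that passed limma's test against sham after every resection. It rose 2.54-fold in PH30 (1.34, SE 0.38, limma adjusted p = 0.034), 2.56-fold in PH70 (1.36, SE 0.38, adjusted p = 0.01) and 3.33-fold in PH90 (1.74, SE 0.38, adjusted p = 0.00045). The PH30 call was the least firm, being lost in 8 of the 12 fits that left out 1 of its 12 rats (adjusted p 0.014 to 0.081): those without PH30 rat 98, 99, 130 or 140, or without sham rat 41, 45, 112 or 141. It was also lost in a fit of those 12 arrays alone (adjusted p = 0.058). Against the unoperated rats, whose values ran from -1.08 to 0.17 (median -0.38), only the PH90 rise passed limma's test (1.23, adjusted p = 0.011). The PH30 and PH70 differences from unoperated were 0.84 (adjusted p = 0.17) and 0.86 (adjusted p = 0.13).

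Klf6, a Kruppel-like zinc finger factor first known as a gene of activated stellate cells, had the widest PH90 range: 0.33 to 3.01 with a median of 1.53. Sham values lay between -0.17 and 0.16 (median -0.07), PH30 values between -0.67 and 0.58 (median -0.20) and PH70 values between -0.55 and 0.43 (median 0.16). Every PH90 rat was above every sham rat, and rats 106 and 61 were highest, as for Fosl1. Klf6 rose 3.06-fold against sham (1.62, SE 0.30, limma adjusted p = 5.2e-05). PH30 (-0.10, adjusted p = 0.9) and PH70 (0.11, adjusted p = 0.87) did not pass limma's test, although their rats were more spread out than the sham rats.

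Ier3, an immediate early gene whose product modulates ERK signalling and cell survival, had sham values from -0.37 to 0.06 (median -0.21). It ran from -0.13 to 0.73 in PH30 (median 0.28), from -0.48 to 0.48 in PH70 (median 0.29) and from -0.04 to 0.75 in PH90 (median 0.32). Each resected group overlapped with sham, and the 3 resected medians lay close together. Ier3 rose 1.46-fold in PH90 (0.55, SE 0.16, limma adjusted p = 0.0084), a call that quantile normalization ended (0.44, adjusted p = 0.09). In PH30 the difference was 0.46 (adjusted p = 0.093), and without rats 95 and 139 it passed (0.53, adjusted p = 0.033). In PH70 it was 0.36 (adjusted p = 0.13), and it passed without rat 97 (0.49, adjusted p = 0.027).

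The resections were also set against one another, to ask how far the size of the resection mattered. Between PH70 and PH30 none of the 10 genes passed limma's test, where 2.27% of all genes did. At an unadjusted p below 0.05 only Jun did (0.44, 95% interval 0.13 to 0.74, adjusted p = 0.11). Without rats 95 and 139, 13.3% of all genes passed and still none of the 10.

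Between PH90 and PH70, 6 of the 10 genes were higher in PH90, where 24.5% of all genes changed and 14.1% were higher. These were Fos (0.47, adjusted p = 0.0012), Fosl1 (0.69, adjusted p = 0.0059), Jun (0.67, adjusted p = 0.0011), Jund (0.65, adjusted p = 0.0017), Atf3 (0.69, adjusted p = 0.00086) and Klf6 (1.5, adjusted p = 0.00026), by limma. Quantile normalization left 3 of these calls, Atf3, Fosl1 and Klf6, and Fos (0.27, adjusted p = 0.08), Jun (0.38, adjusted p = 0.16) and Jund (0.38, adjusted p = 0.19) were lost. Fosl1 was 0.45 higher (adjusted p = 0.012) without rat 106, and its call was lost in a fit of the PH90 and PH70 arrays alone (adjusted p = 0.085).

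Between PH90 and PH30 the same 6 genes were higher by limma's test, where 31.5% of all genes changed and 18.4% were higher. The differences were 0.54 for Fos, 0.63 for Fosl1 (0.39 without rat 106, adjusted p = 0.025), 1.10 for Jun, 0.86 for Jund, 0.82 for Atf3 and 1.72 for Klf6. In a fit of these 12 arrays alone the Fosl1 call was lost (limma adjusted p = 0.098). Fos, Jun, Jund and Atf3 had every PH90 rat above every PH30 rat, as did 7.85% of all genes.

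Junb, Egr1 and Ier3 rose in PH90 against sham but did not pass the test between PH90 and the smaller resections. Junb was 0.44 higher than in PH70 (95% interval -0.03 to 0.92, limma adjusted p = 0.19) and 0.44 higher than in PH30 (-0.04 to 0.91, adjusted p = 0.16). Without rats 95 and 139 the PH70 difference of Junb passed (0.63, adjusted p = 0.035), and it also passed without rat 111 (0.62, adjusted p = 0.039). Without rat 111 the PH30 difference of Junb passed as well (0.62, adjusted p = 0.033). For Egr1 the intervals were wide, -0.40 to 1.15 against PH70 and -0.38 to 1.17 against PH30. For Ier3 they were -0.15 to 0.52 and -0.24 to 0.42.

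The sham rats were also compared with the unoperated rats, which differ from them by the operation without resection and by their numbers. None of the 10 genes passed limma's test, where 0.738% of all genes did. At an unadjusted p below 0.05 only Jun did: the unoperated rats ran from -0.36 to 0.45 (median 0.23), and all 6 sham rats lay below the unoperated mean. The difference was -0.56 (SE 0.15, limma adjusted p = 0.08), ranked 196 of all genes by p. It passed in a fit of these 12 arrays alone (adjusted p = 0.0096), with array weights (adjusted p = 0.017), with quantile normalization (-0.71, adjusted p = 0.015), with genes of low variation left out (adjusted p = 0.047) and without the unoperated rat 147 (-0.66, adjusted p = 0.028). Taken singly, the 2 Jun probe sets gave -0.94 (limma adjusted p = 0.06) and -0.17 (adjusted p = 0.56), so neither passed. The unoperated rats carry the numbers 145 to 152 and all others 37 to 143, so the order of the rats and the lack of an operation cannot be told apart.

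With the unoperated rats as the control, the same 9 genes were higher in PH90, where 33.8% of all genes changed. The Jun difference was 0.62 there (SE 0.15, limma adjusted p = 0.0013) and 1.18 against sham. In PH70 3 genes were higher, where 18.5% of all genes changed: Fos (0.31, adjusted p = 0.038), Junb (0.68, adjusted p = 0.039) and Ier3 (0.52, adjusted p = 0.024) by limma. The Junb call was lost without rats 95 and 139 (0.50, adjusted p = 0.12). In PH70 Jun was at -0.04 from the unoperated mean (adjusted p = 0.92). In PH30 Ier3 was higher (0.61, adjusted p = 0.015) and Jun was lower (-0.48, adjusted p = 0.04) by limma, where 9.85% of all genes changed. Of the 2 Jun probe sets 1 passed there (-0.81, limma adjusted p = 0.028) and the other did not (-0.14, adjusted p = 0.39). Without rats 95 and 139 the Jun call was lost (-0.45, adjusted p = 0.054), while Junb was then higher (0.73, adjusted p = 0.024). These comparisons share the resected rats with those against sham and are not separate evidence.

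**Figure D3:**
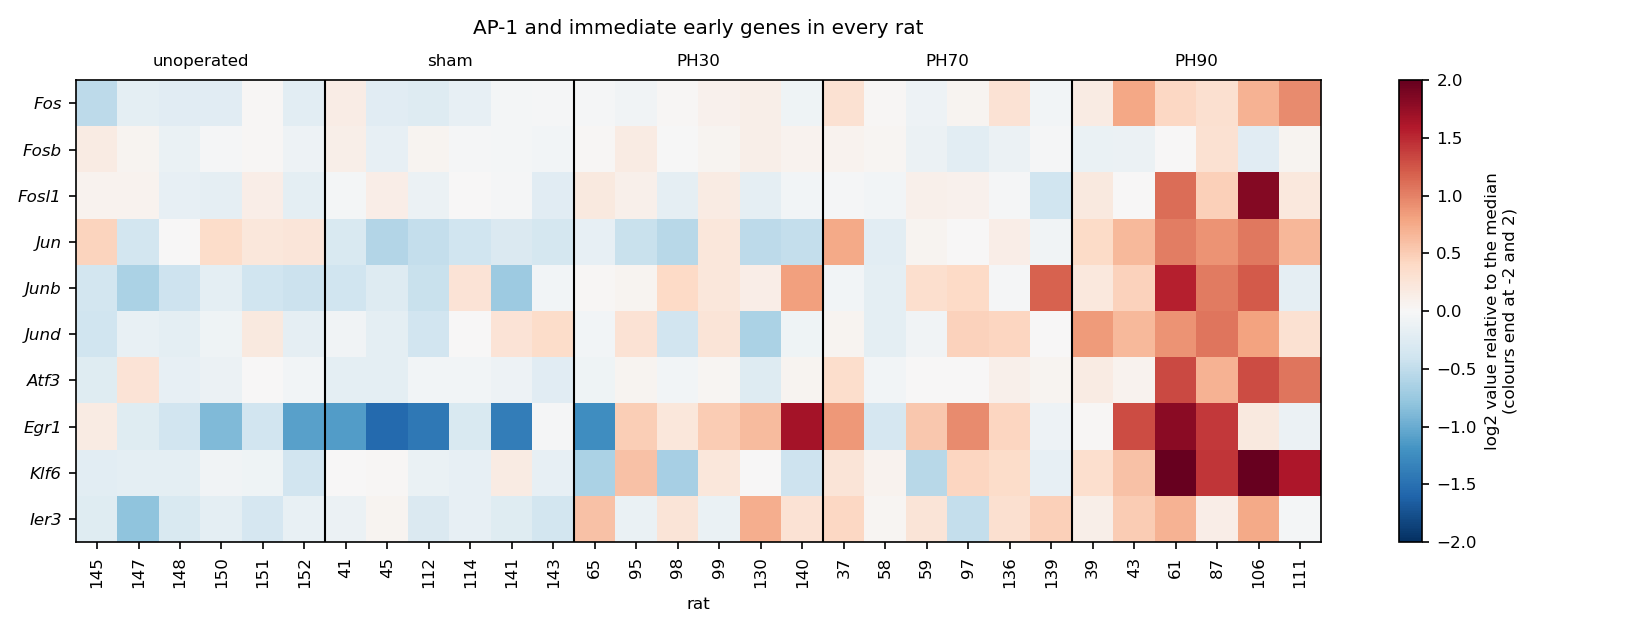
Log2 value relative to the median over 30 arrays (colour, with the scale ending at -2 and 2) of the 10 genes (rows) in each rat (columns, rat numbers below), grouped by operation. In PH90, rats 61 and 106 have the highest means over the 10 genes (1.12 and 1.06) and rat 39 the lowest (0.23).

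The PH90 rats differed among themselves. The mean over the 10 genes was 1.12 in rat 61, 1.06 in rat 106, 0.78 in rat 87, 0.49 in rat 43, 0.45 in rat 111 and 0.23 in rat 39. Rat 111 was highest of its group for Fos (0.94) but lowest for Junb, Jund, Egr1 and Ier3. After the group mean was removed, none of the 45 pairs of the 10 genes passed a permutation test with Benjamini-Hochberg adjustment over the 45 (n = 30 rats). The pairs with the highest correlation were Fosl1 with Klf6 and Atf3 with Klf6. The first had Pearson r = 0.76 and Spearman rho = 0.51 (permutation p = 0.0035, adjusted p = 0.13). Its r was 0.54 without the 2 rats farthest from the median of Fosl1, and 0.24 in the 24 rats outside PH90. Atf3 and Klf6 had r = 0.76 and rho = 0.47 (permutation p = 0.0057, adjusted p = 0.13), with r = 0.61 without the 2 rats farthest from the median of Atf3 and 0.17 in the 24 rats outside PH90. Fos and Junb, which can pair in AP-1, had r = -0.34 and rho = -0.34 (permutation p = 0.18, adjusted p = 0.69).

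The genes with the values most like each of the 10, by Pearson r after removing the group means over 30 rats, are a description chosen as the highest of all genes. Junb was closest to Socs3, the feedback inhibitor of cytokine signalling through STAT3 (r = 0.85, rho = 0.86). Rat 139 had the highest value of its group for both, 1.18 for Junb and 1.52 for Socs3. Klf6 was closest to Pvr (r = 0.87), and Klf6 and Atf3 shared Ms4a4a (0.86 and 0.84) and Tinagl1 (0.85 and 0.81) among their 3 nearest. By rank these were lower: rho was 0.73 for Pvr, 0.61 and 0.55 for Ms4a4a, and 0.52 and 0.52 for Tinagl1. Fosl1 was closest to Dio3, a deiodinase that inactivates thyroid hormone (r = 0.91), but rho was 0.45. Egr1 had Nab1, a corepressor that binds EGR proteins, among its 3 nearest (r = 0.65). The highest r was 0.65 for Fos, 0.67 for Fosb, 0.72 for Jun, 0.67 for Jund and 0.73 for Ier3.

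Other genes of the same response were taken from 5 lists, which overlap in part. They are compared with sham, except where the unoperated rats are named. Of all genes, 2.2% rose and 3.34% fell in PH30, 10.5% rose and 8.15% fell in PH70, and 19.9% rose and 14.7% fell in PH90, and counts of list genes are to be read against these shares. Without rats 95 and 139, 10.9% of all genes changed in PH30 and 23.7% in PH70. Of 35 other immediate early genes, 32 were measured: 19 rose and 2 fell in PH90 against sham, with a median difference of 0.51 against 0.00 for all genes. In PH30 1 rose and 1 fell, and in PH70 1 rose and 2 fell. With rats 95 and 139 left out Zfp36 passed too in PH70 (0.50, limma adjusted p = 0.041) and Socs3 in PH90 (0.55, adjusted p = 0.015). The Socs3 difference in PH90 was 0.55 with all rats as well (limma adjusted p = 0.055). In PH90 Gadd45b, a stress gene linked to MAP kinase signalling and growth, rose 6.02-fold (2.59, SE 0.23, limma adjusted p = 3.6e-10). Its 6 PH90 rats ran from 1.17 to 3.52, all above the highest sham rat at 0.17. Ccn1 (2.04) and Ccn2 (1.80), secreted matricellular proteins, rose together with Zfp36 (1.64), which destabilises AU-rich mRNAs, Phlda1 (1.60) and the small GTPase gene Rhob (1.55).

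Klf2, a Kruppel-like factor known from endothelium, rose in PH30 (0.46, limma adjusted p = 0.042), PH70 (0.40, adjusted p = 0.039) and PH90 (1.10, adjusted p = 1.1e-07). Its PH90 rats ran from 0.03 to 1.08 and its sham rats from -0.44 to -0.26, without overlap. Dusp1, the nuclear phosphatase of p38, JNK and ERK and a classical immediate early gene, moved the other way. Sham rats ran from 0.28 to 1.36 (median 0.62), PH30 from -0.85 to 0.14, PH70 from -1.22 to -0.27 and PH90 from -1.47 to 0.45. Every PH30 and PH70 rat was below every sham rat, and PH90 overlapped. The share of all genes without overlap in the lower direction is not given here, so how common this pattern was is left unsaid. Dusp1 fell by 1.09 in PH30 (adjusted p = 0.019), by 1.57 in PH70 (adjusted p = 0.00015) and by 1.19 in PH90 (adjusted p = 0.00094), by limma. Sgk1, a serum and glucocorticoid regulated kinase, fell by 0.90 in PH70 (adjusted p = 0.046).

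**Figure D4:**
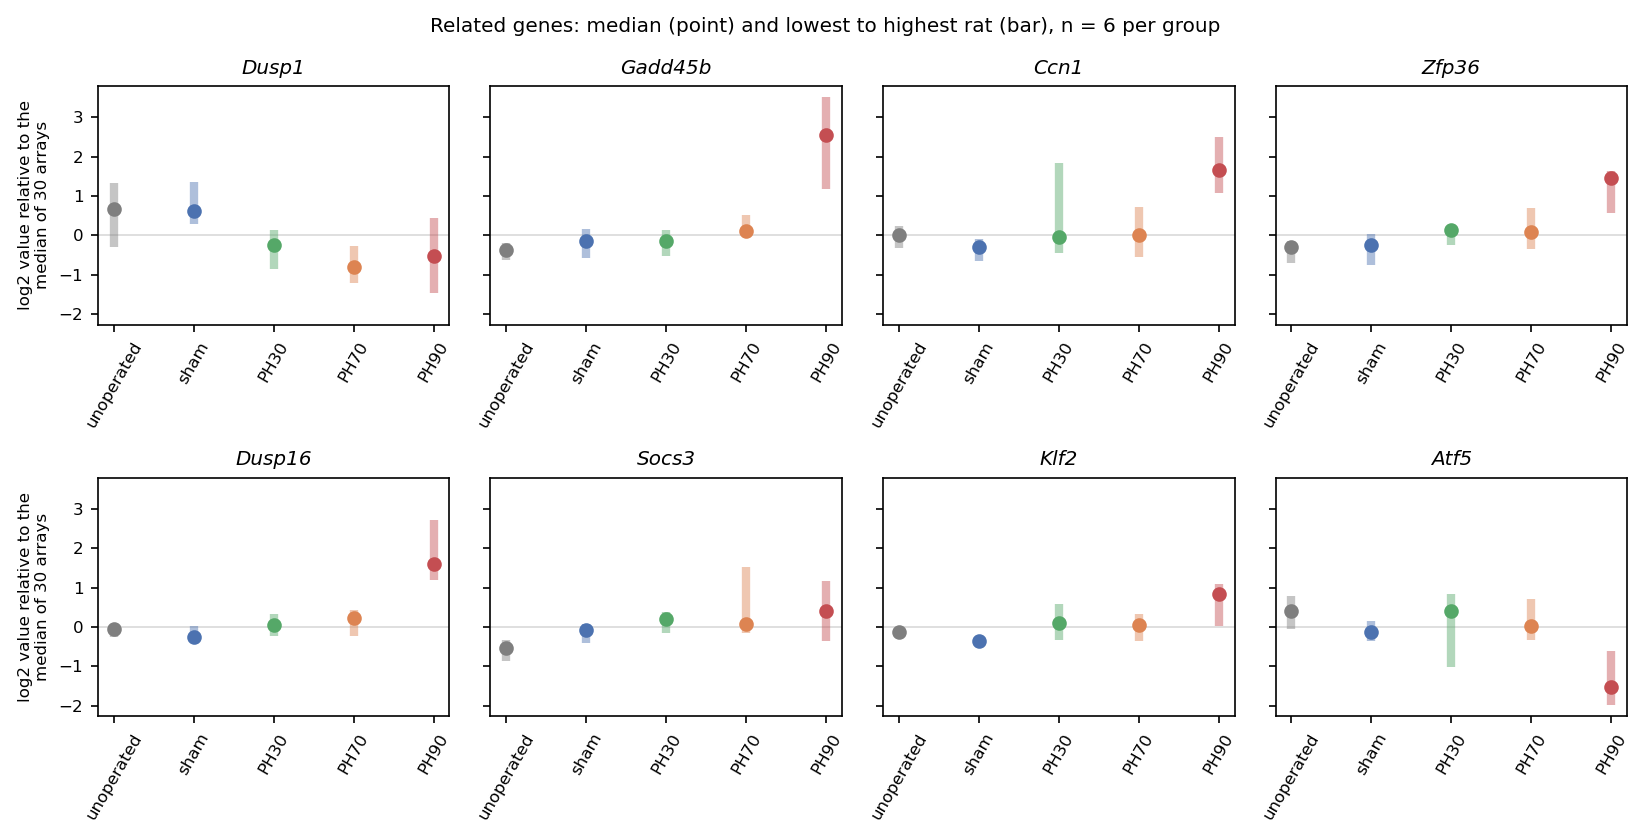
Log2 value relative to the median over 30 arrays (vertical axis) of 8 related genes, with the median (point) and the lowest to highest rat (bar) of each group (n = 6). Gadd45b, Ccn1, Zfp36 and Dusp16 have every PH90 rat above every sham rat, while Dusp1 is lower in the PH30 and PH70 rats and Atf5 lower in the PH90 rats than in every sham rat.

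All 14 MAP kinase feedback inhibitors of the list were measured. Of these 9 rose and 1 fell in PH90, where 19.9% and 14.7% of all genes did, with a median of 0.40. Dusp16, a JNK phosphatase, rose 4.10-fold (2.04, SE 0.19, limma adjusted p = 7e-10), from a sham range of -0.38 to 0.02 to a PH90 range of 1.18 to 2.71. Dusp5 (0.89), Dusp6 (0.74), Dusp8 (0.62) and Spred2 (0.58) also rose, and Dusp1 was the member that fell. The Dusp6 mean was 0.23 in PH90, -0.51 in sham and 0.05 in the unoperated rats. In PH70 Spry2 rose (0.24, limma adjusted p = 0.01) and Dusp1 fell, and in PH30 Dusp1 fell. When rats 95 and 139 were left out Rasa1, a GTPase activating protein for Ras, fell as well, by 0.41 in PH30 (adjusted p = 0.013) and by 0.30 in PH70 (adjusted p = 0.042).

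Of 28 MAP kinase cascade and SRF factor genes 22 were measured. Of these 7 rose and 5 fell in PH90, where 19.9% and 14.7% of all genes did, with a median of 0.09. Map3k5, the stress kinase ASK1, rose (0.81, limma adjusted p = 8.1e-08), as did Nras (0.63), the ternary complex factor Elk3 (0.49), Srf itself (0.41) and Hras (0.38), while Map2k6, a kinase of p38, fell by 0.48. In PH70 Map3k5 (0.29) and Hras (0.28) rose and Mapk10 fell by 0.38. In PH30 none passed limma's test with all rats, and 3 rose without rats 95 and 139: Elk3 (0.41, adjusted p = 0.025), Hras (0.32, adjusted p = 0.013) and the ternary complex factor Elk1 (0.30, adjusted p = 0.023).

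The other bZIP factors, 18 measured of 21, were divided: 7 rose and 2 fell in PH90, where 19.9% and 14.7% of all genes did. Their median was 0.04. Mafk, a small Maf protein, rose (0.72, limma adjusted p = 9.1e-07), as did Atf4 (0.53) and Atf6 (0.44), factors of the integrated stress and unfolded protein responses, and Cebpb (0.33). The Atf4 mean was 0.22 in PH90, -0.31 in sham and 0.17 in the unoperated rats, so PH90 lay close to the unoperated rats. Atf5 fell by 1.30 (SE 0.24, adjusted p = 5e-05), from a sham range of -0.35 to 0.16 to a PH90 range of -1.99 to -0.62. Batf3 fell by 0.34. Crem, a cyclic AMP responsive factor with repressor isoforms, fell by 0.38 in PH30 (limma adjusted p = 0.039) and by 0.40 in PH70 (adjusted p = 0.0091), and no other gene of the list passed there with all rats. With those 2 rats (95 and 139) left out Atf5 rose in PH30 (0.62, limma adjusted p = 0.042) and Maf fell in PH90 (by 0.44, adjusted p = 0.016). The Maf difference in PH90 was -0.44 with all rats as well (limma adjusted p = 0.054).

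Textbook AP-1 target genes, 18 measured of 20, had the highest median of the 5 lists in PH90, 0.70, with 12 higher and 2 lower. Ccnd1, the G1 cyclin, rose 4.16-fold (2.06, SE 0.29, limma adjusted p = 9.6e-07). Timp1, an inhibitor of metalloproteinases, rose 4.04-fold (2.01, SE 0.30), followed by Vim (1.46), the chemokine gene Ccl2 (1.22), Hmox1 (1.13) and Cd44 (1.02). Some of these also passed after the smaller resections: Timp1 rose by 1.18 in PH30 (limma adjusted p = 0.019) and by 1.56 in PH70 (adjusted p = 0.00037). In PH70 Ccnd1 (1.49), Ccl2 (0.81), Hmox1 (0.77) and Vim (0.61) rose too, and Vegfa fell by 0.38. In all, 6 of the 18 rose and 1 fell in PH70, where 10.5% and 8.15% of all genes did, and 1 rose in PH30, where 2.2% did. Gclc, a subunit of the glutathione synthesis enzyme, also rose in PH70 without rats 95 and 139 (0.52, limma adjusted p = 0.0063). These genes have other regulators, and no binding was measured.

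Markers of liver cell types are given for PH90 against sham, where 19.9% of all genes rose and 14.7% fell. Their part in the results was not tested. Of 12 macrophage markers 1 rose and 6 fell, and the list mean per rat ran from -0.61 to 0.04 in PH90 and from -0.05 to 0.21 in sham. Of 9 neutrophil markers 4 rose, with list means from -0.01 to 0.33 against -0.15 to 0.04, and of 10 T and NK cell markers 5 fell (-0.29 to -0.16 against 0.05 to 0.19). Of 5 B cell markers 2 fell (-0.16 to 0.00 against 0.01 to 0.19), and of 5 erythroid markers 2 fell (-0.17 to 0.13 against 0.03 to 0.36).

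Of 9 stellate cell markers 2 rose and 3 fell (-0.28 to 0.16 against -0.12 to 0.30), of 6 endothelial markers 1 rose and 1 fell (-0.21 to 0.17 against -0.26 to 0.16), and of 8 bile duct markers 1 rose and 1 fell (0.01 to 0.43 against -0.09 to 0.07). Of 9 hepatocyte markers 2 rose and 4 fell, with list means from -0.32 to -0.18 in PH90 against 0.04 to 0.25 in sham. Cyp2e1, a cytochrome P450 of the pericentral hepatocyte, fell by 2.52 and Asgr1, the hepatocyte asialoglycoprotein receptor, by 1.38, while Tat, a tyrosine aminotransferase, rose by 0.66 and the fibrinogen gene Fgb by 0.22. Leaving out rats 95 and 139, the macrophage marker C1qa and the stellate cell marker Dcn also fell in PH90, and the neutrophil marker Mmp8 also rose. Their differences from sham were the same with all rats (-0.25, -0.74 and 0.35), as neither rat is in PH90 or sham. With centred values it cannot be said whether any marker was at or near 0.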

How the data were processed

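Expression was measured in liver of 30 rats, 1 array each, in 5 groups of 6 named by each label's treatment. The deposited table holds log2 values of 29489 probe sets, made by the authors with RMA in Affymetrix Expression Console per the submitters' processing notes, with no version stated there. The values were centred, with each probe set's median at 0, which removed levels. Of the probe sets, 18511 had 1 gene symbol, 575 several and 10403 none, and 18394 matched RefSeq by Entrez ID. Probe sets of a gene were averaged, giving 18166 genes.

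Group means were fitted with limma 3.58.1 (R 4.3.3; lmFit and eBayes, 25 residual and 3.71 prior degrees of freedom) on all 30 arrays, with Benjamini-Hochberg adjustment over all genes and a call at adjusted p below 0.05. The fit was tested on simulated data. Pairs used 100000 permutations within groups, two-sided. The number of arrays limits the precision. The alternatives were a fit of the compared groups alone, array weights, quantile normalization, median centring, a robust eBayes prior, a filter on low variation, each probe set by itself, exact permutation tests, the unoperated control, and leaving out rats.

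All 10 genes are named in every comparison. From each list up to 6 called genes per comparison are candidates for naming, by size, and the 3 most similar genes of each member were ranked by Pearson r. The genes and lists were chosen with earlier results of these data known. Listed genes without a probe set of 1 symbol were not analysed here.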

Additional observations from a re-analysis of the deposited data

Results flagged for a closer look

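Dixon's test for a rat far from the other 5 of its group was made 50 times, for 10 genes in 5 groups, and marked 3 rats, where chance would mark about 2.5. Jun in PH70 was highest in rat 37, at 0.76, with the other 5 rats between -0.21 and 0.13, and without this rat the PH70 call of Jun against sham was lost. Fosl1 in PH70 was lowest in rat 139, at -0.40, with the others between -0.06 and 0.10. Ier3 in the unoperated group was lowest in rat 147, at -0.81, with the others between -0.34 and -0.15.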

How the results depend on the processing

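Of 24 calls of a gene in the comparisons with sham and among resections, 501 alternative values were computed: 484 kept direction and call, 17 lost the call and 0 reversed, and 15 calls were never lost. Some alternatives were bound to lie near the main fit, so the 484 are not separate checks. These include each probe set by itself for genes with 1 probe set. Median centring is another, as array medians ran from -0.009 to 0.022. An exact permutation test counted as keeping the call when its unadjusted p was below 0.05. With each probe set by itself a gene counted as called when its probe set with the smallest p was, so the PH70 call of Jun counts as kept although its other probe set did not pass (0.15, limma adjusted p = 0.35). The count for sham against unoperated, 0, became 1 in the fit of the 2 groups alone, with array weights, with quantile normalization and with genes of low variation left out, and was 0 to 1 when 1 rat was left out. For PH30 against sham the count of 1 became 0 in the fit of the 2 groups alone, 2 with array weights, 2 without rats 95 and 139, 3 with quantile normalization and 2 with the unoperated control, and was 0 to 2 when 1 rat was left out. The 2 with the unoperated control were Ier3, higher, and Jun, lower, and the Egr1 call was lost there. For PH70 against sham the count of 2 was 1 to 3 when 1 rat was left out. It was 3 with the unoperated control, but these were Fos, Junb and Ier3, and the calls of Jun and Egr1 were lost. For PH90 against PH70 the count of 6 became 3 with quantile normalization. The cause was not tested. Fits of 2 groups alone also ended the Fosl1 calls in PH90 against PH70 (adjusted p = 0.085, limma) and PH30 (adjusted p = 0.098). The filter on low variation kept 8 of the 10 genes. Calls of a gene that it left out have no value under that setting and were not counted as lost. Quantile normalization lowered the median PH90 difference of the 10 genes from 0.83 to 0.56 and moved the number of all genes called in PH30 against sham from 1005 to 2119, in PH90 against PH70 from 4454 to 2003, and in sham against unoperated from 134 to 509. Without rats 95 and 139 those called in PH70 against PH30 went from 413 to 2420, and the share of higher calls from 77.5% to 66.6%. Depth does not apply to arrays, and signal over background is unknown because levels were removed, so no filter on dim probes was run. No paired analysis was possible because the rats' numbers are unique and no groups share any.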
